A study of Mus musculus with 24 samples.

Results

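The comparison described here set the effect of the Venus sort in the small intestine against its effect in the colon. For each gene the level in Venus-positive cells was divided by the level in Venus-negative cells of the same region, and this sort difference, on a log2 scale, was averaged over the duodenum, jejunum and ileum and compared with that of the colon. All 24 libraries of the series entered it, 18 from the small intestine and 6 from the colon, 3 for every combination of region and sort, 8 groups in all. Every group came from Guca2a-Venus mice, labelled GFP positive or GFP negative by the sort alone, so the negative cells carried the transgene too. In these mice a bacterial artificial chromosome encodes Venus, a fluorescent protein, where it would otherwise encode Guca2a, the precursor of guanylin. All animals of the line descend from 1 founder. The founder came from an egg of a C57Bl6J and CBA cross, the animals had been bred back to C57Bl6J for unequal numbers of generations, and their age is not given in the sources used here. Epithelium was digested to single cells, and dead cells, debris and CD45-positive immune cells were gated out. The colon was collected along with the rectum and was treated with another EDTA concentration than the small intestine, so the effect of tissue and that of digestion cannot be told apart.

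Guanylin and its relative uroguanylin are secreted by the intestinal epithelium and bind guanylate cyclase C, which raises cGMP and drives salt and water into the gut lumen. The villi of the small intestine hold enterocytes with a brush border of digestive enzymes and nutrient transporters, and its crypts hold Paneth cells, which secrete lysozyme and defensins. The colon has no villi and normally no Paneth cells. Its surface is made of colonocytes, which take up salt, water and short-chain fatty acids, and its crypts are rich in goblet cells, which secrete the mucin Muc2. Enteroendocrine cells, tuft cells and stem cells occur along the whole length.

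The libraries held 7458616 to 23063124 reads on genes, and 15044 of 53465 genes passed the filter on low counts. The design states 3 mice, but the labels do not say which library came from which, so p-values rest on the spread between libraries of a group. In bulk samples fewer cells of a type and less RNA per cell cannot be told apart. Genes of the mitochondrial genome held 32.3% to 60.6% of the counts in the positive libraries of the small intestine and 61.2% to 78.8% in the negative ones, whereas in the colon the ranges were 68.6% to 77.9% and 65.3% to 80.7%. The share of mitochondrial counts therefore moved with the sort in the small intestine and overlapped between the sorts in the colon. Its part in the results below was not tested, apart from a fit on protein-coding genes outside the mitochondrial genome, given beside the counts. Marker genes of epithelial cells summed to between 1720 and 4450 CPM in every library (reads on a gene relative to the TMM-scaled library size).

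The sort difference was higher in the small intestine for 207 genes and higher in the colon for 414 genes (edgeR's quasi-likelihood test, adjusted p of 0.05), which are 1.38% and 2.75% of the genes tested. Below, a gene called higher in a tissue had the higher sort difference there, unless cells of 1 sort or a level are named. The balance between these directions moved with the scaling. The median of all genes lay at -0.27 on the log2 scale (0.04 with library size alone), and scaling by library size alone gave 266 and 138 genes (1.77% and 0.917%), RLE factors gave 274 and 284 (1.82% and 1.89%), and the fit on protein-coding genes gave 294 and 313. DESeq2 called 483 and 593 (3.21% and 3.94%) and limma voom 129 and 589 (0.857% and 3.92%). In the small intestine alone 3652 genes (24.3%) were higher and 5047 (33.5%) lower in positive cells, and in the colon 1400 (9.31%) were higher and 572 (3.8%) lower. The small intestine mean drew on 18 libraries and the colon on 6, and for Muc2 the standard errors were 0.28 and 0.43. Counts of genes called in each tissue, here and below, were thus made with unequal precision. A gene not called in the colon is not shown to lack a sort difference there. Of the 207 genes, 158 were higher in positive cells of the small intestine and were not called in the colon, 24 were higher in both, and 10 were higher in the small intestine and lower in the colon. A further 12 were lower in the colon and not called in the small intestine, 1 was lower in both and 2 were called in neither. Of the 414 genes, 284 were lower in positive cells of the small intestine and were not called in the colon, 44 were higher in the colon and not called in the small intestine, 34 were lower in the former and higher in the latter, 31 were higher in both and 21 lower in both. In 193 of the 207 and 397 of the 414 genes the sort difference of each of the 3 regions lay on the same side of that of the colon. These genes were called on the mean of the same 3 regions, so this agreement follows in part from the selection. The share over all genes tested was not computed. The 3 regions themselves differed in their sort difference for 2072 genes (13.8% of those tested), among them 104 of the 207 and 163 of the 414. With parts of the small intestine set against the colon, the shares of all genes called higher in the small intestine and in the colon were 2.96% and 7.03% for the jejunum and ileum together, 1.47% and 2.15% for the duodenum, 2.3% and 7.39% for the jejunum and 1.52% and 1.26% for the ileum. Of the 70 called genes named below, 59 were called with the jejunum and ileum together, 41 with the duodenum alone, 58 with the jejunum alone, 43 with the ileum alone and 18 with each of the 3 regions alone. The 70 genes were called on all 3 regions, and some were chosen because each region lay on the same side of the colon. These counts therefore share that selection.

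**Figure D1:**
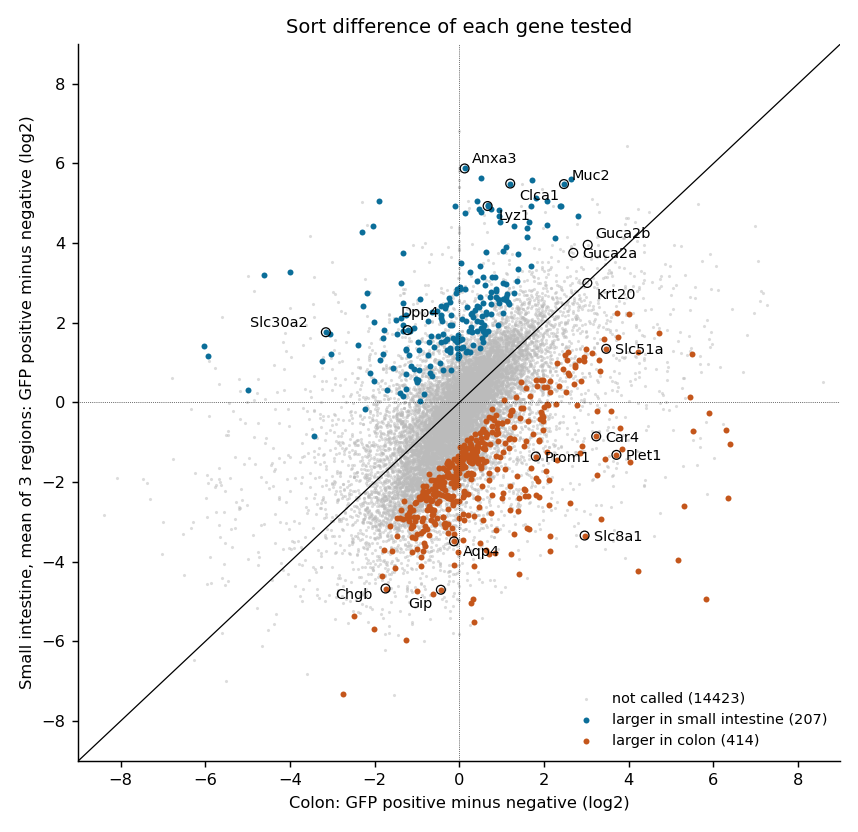
Sort difference (GFP positive minus GFP negative, log2) in the colon on the horizontal axis and in the small intestine, as the mean of 3 regions, on the vertical axis, for each of the 15044 genes tested. The line marks equal sort differences, and genes called higher in the small intestine (207) lie above it and those called higher in the colon (414) below it, while Guca2a, Guca2b and Krt20 lie near the line and were not called.

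The start sites of 4 called genes from the groups below are shown to place them in the genome: Muc2 of goblet cells, Lyz1 of Paneth cells, Dpp4 of the brush border and Car4 of colonocytes. Each window runs from 250 bases before to 50 bases after the RefSeq start of the gene (GRCm38.p6), is written along the gene's strand, and has matches to the motifs searched in capitals. The Muc2 window (chr7:141690090-141690389, plus strand) and the Car4 window (chr11:84957504-84957803, plus strand) stand beside those of Lyz1 (chr10:117292819-117293118, minus strand) and Dpp4 (chr2:62412182-62412481, minus strand).
Muc2: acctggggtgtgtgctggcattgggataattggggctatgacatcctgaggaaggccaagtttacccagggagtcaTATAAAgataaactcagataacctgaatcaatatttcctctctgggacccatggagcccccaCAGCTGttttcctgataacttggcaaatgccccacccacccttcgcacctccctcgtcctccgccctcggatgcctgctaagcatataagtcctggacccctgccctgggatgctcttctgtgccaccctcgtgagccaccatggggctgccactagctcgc
Lyz1: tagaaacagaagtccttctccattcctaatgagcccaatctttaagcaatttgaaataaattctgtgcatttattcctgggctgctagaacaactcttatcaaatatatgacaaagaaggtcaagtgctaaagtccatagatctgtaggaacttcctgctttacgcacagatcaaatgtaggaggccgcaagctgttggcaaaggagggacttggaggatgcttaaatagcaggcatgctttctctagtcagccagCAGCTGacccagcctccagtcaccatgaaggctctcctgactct
Dpp4: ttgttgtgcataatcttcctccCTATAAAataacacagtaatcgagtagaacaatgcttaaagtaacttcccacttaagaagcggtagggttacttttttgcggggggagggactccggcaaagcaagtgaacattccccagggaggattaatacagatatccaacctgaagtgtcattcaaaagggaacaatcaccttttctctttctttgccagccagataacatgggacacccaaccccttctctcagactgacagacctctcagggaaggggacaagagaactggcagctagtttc
Car4: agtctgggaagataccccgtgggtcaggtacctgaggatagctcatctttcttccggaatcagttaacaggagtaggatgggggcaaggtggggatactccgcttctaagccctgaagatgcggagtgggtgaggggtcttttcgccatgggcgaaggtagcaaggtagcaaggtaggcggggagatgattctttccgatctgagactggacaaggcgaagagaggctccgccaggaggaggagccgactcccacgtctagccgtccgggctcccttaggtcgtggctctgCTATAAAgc
The motifs were searched on both strands: TATAAA (the TATA box), CAGCTG (an E-box), TTTATNG (as bound by CDX factors; its complement overlaps TATAAA in the sequence CTATAAA), CAAAGTCCA (as bound by HNF4) and TGTTTAC (as bound by FOXA factors). Muc2 held the TATA box letters from base -174 relative to the start and the E-box letters from -112, and Lyz1 the E-box letters from 7. Dpp4 and Car4 each held the overlapping pair of TATA box and CDX letters, from -228 and from 42. A window was found for 157 of the 207 genes and 311 of the 414. The E-box letters were in 33 of the 157 windows of the former and 11.9% of the latter, against 14.6% of the windows of all genes tested and 16.1% of all 27025 windows. The TATA box letters were in 14.0% and 12.2%, against 7.42% of genes tested and 14.2% of all windows. The CDX letters were in 11.5% and 9.32% (7.13% of genes tested, 11.3% of all), the HNF4 letters in 1.27% and 0.322% (0.444% and 0.474%), and the FOXA letters in 0.637% and 4.5% (2.63% and 3.52%). These shares are descriptions of the letters and were not tested.

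Several goblet cell products had a higher sort difference in the small intestine. Of 12 genes for goblet mucus proteins, 7 were called in this direction and 1 in the other, and the median of the list was 2.69 on the log2 scale against -0.27 for all genes. Clca1, a secreted protease that processes mucus, was measured at 8292, 7520 and 7057 CPM in the positive libraries of the duodenum and at 18.0, 36.2 and 28.1 CPM in the negative ones. In the colon the positive libraries held 903, 702.1 and 659 CPM and the negative ones 287, 519 and 180 CPM. The sorts did not overlap in either region, and every negative library of the colon lay above every negative library of the duodenum. The sort difference of Clca1 was 8.12, 3.65 and 4.71 along the small intestine from duodenum to ileum and 1.20 in the colon, and the small intestine exceeded the colon by 4.29 (standard error 0.50, adjusted p = 6.68e-06, edgeR). Zg16, a lectin of the mucus layer that binds bacteria, exceeded it by 3.86 (0.48, adjusted p = 1.32e-05) and the mucin Muc2 by 3.01 (0.49, adjusted p = 0.000414).

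The levels of Muc2 were set beside each other sort by sort. Its positive libraries held 2034, 2156 and 2156 CPM in the duodenum, 209, 111 and 155 CPM in the jejunum, 516, 206 and 397 CPM in the ileum, and 623, 434 and 415 CPM in the colon. Its negative libraries held 4.00, 12.8 and 8.72 CPM in the duodenum, 9.41, 19.8 and 7.32 CPM in the jejunum, 8.46, 16.7 and 15.2 CPM in the ileum, and 126, 80.4 and 58.9 CPM in the colon. Every negative library of the colon lay above every negative library of the small intestine, while the positive libraries of the colon lay below those of the duodenum and above those of the jejunum. The sort difference of Muc2 was 7.96, 3.70 and 4.79 from duodenum to ileum and 2.47 in the colon, and its call was lost with the jejunum alone (1.23, adjusted p = 0.182). Between the positive cells of the small intestine, as the mean of these unequal regions, and of the colon Muc2 differed by 0.03 (95% interval -0.65 to 0.70; adjusted p = 0.971), and between the negative cells by -2.98 (adjusted p = 1.23e-08). Over the 12 goblet genes, 9 were called higher in the negative cells of the colon, where 5.74% of all genes were. In positive cells 6 were called higher in the small intestine, where 10.3% of all genes were, and 3 in the colon, where 15.9% were. Ang4, an antimicrobial ribonuclease with close relatives in the genome, had the largest value of the list, at 5.04 (standard error 1.08, adjusted p = 0.00649). Its colon libraries ranged from 18.1 to 177 CPM in positive and from 4.25 to 234 CPM in negative cells, and without the second negative library of the colon its value was 2.23 (adjusted p = 0.154).

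One goblet gene ran the other way. Ccn3, a secreted matricellular protein, had at most 2 counts in any library of the small intestine, and 40.3, 28.6 and 42.2 CPM in the positive and 6.71, 8.28 and 7.48 CPM in the negative libraries of the colon. No fold is given for the small intestine, where both sorts were at the floor of 3 counts, so its fitted value of -3.76 rests on the prior count, and its call was lost in 16 of the 24 fits that left out 1 library (adjusted p up to 1.0). Muc13, a membrane mucin of all surface cells, was not called (0.67, 95% interval -0.14 to 1.48).

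Of 18 genes for mucin-type O-glycosylation 16 were tested and 3 were called, all higher in the small intestine, and the list median was 0.08. The regions differed, with 7 called higher in the small intestine, 3 in the colon and a median of 1.43 for the duodenum alone, and 3, 1 and -0.19 for the jejunum and ileum together. Chst4, a sulfotransferase of mucin sugars, held 68.4, 51.8 and 62.7 CPM in the positive and 4.42, 2.72 and 5.41 CPM in the negative libraries of the duodenum, and 18.5, 14.0 and 7.42 CPM against 5.63, 20.1 and 16.2 CPM in the colon. The sorts overlapped in the colon and did not in the duodenum, and its difference was 2.84 (standard error 0.54, adjusted p = 0.00221). Galnt5 and Galnt10, which start O-glycan chains, had 2.80 (0.55, adjusted p = 0.00291) and 1.07 (0.30, adjusted p = 0.0365), the call of Galnt10 being lost in 11 of the 24 fits that left out 1 library (adjusted p up to 0.163). Of 12 transcription factors of the secretory lineage 1 was called, Creb3l1 at 1.12 (adjusted p = 0.044), with a sort difference of 3.72, 0.70 and 0.73 from duodenum to ileum and 0.60 in the colon. With the duodenum alone 6 of the 12 were called higher in the small intestine (median 2.73), and with the jejunum and ileum together 1 was called in each direction (median -0.081). Of 24 genes for protein folding in the endoplasmic reticulum 1 was called, the goblet cell stress sensor Ern2 at 1.93 (adjusted p = 0.0354), with 5.32, 0.63, 2.01 and 0.73 in the same order. The calls of Creb3l1 and Ern2 were lost in 17 and 8 of the 24 fits that left out 1 library, with adjusted p up to 0.135 and 0.0945. Galnt10, Creb3l1 and Ern2 were called with the duodenum alone. They lost their calls with the jejunum and ileum together and with either alone (adjusted p up to 0.817, 0.915 and 0.961).

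Of 15 genes listed for Paneth cell products 12 were tested and 7 were called higher in the small intestine, and the list median was 4.02. In positive cells 11 of the 12 were called higher in the small intestine than in the colon, where 10.3% of all genes were. In negative cells 10 were, against 6.53% of all genes. The stress-response gene Nupr1, singled out after its values were seen, was called higher in the colon in both sorts. Defa24, an alpha-defensin, held 22510, 26060 and 9784 CPM in the positive and 152, 372 and 89.6 CPM in the negative libraries of the duodenum. In the colon it held 23.3, 9.34 and 11.1 CPM and 17.0, 5.86 and 4.93 CPM. The sorts were far apart in the duodenum and overlapped in the colon. The difference was 4.30 (standard error 0.76, adjusted p = 0.00131) for Defa24 and 4.26 (0.84, adjusted p = 0.00291) for the lysozyme Lyz1. Positive cells of the small intestine exceeded those of the colon by 8.88 for Defa24 and 8.93 for Lyz1, and negative cells by 4.58 and 4.66. The defensin genes Gm14851 (4.62), AY761184 (4.41) and Defa30 (4.13) and the lectin Itln1 (4.66) had like values, with adjusted p from 0.00161 to 0.00403. Defensin genes are near-identical copies, as are Lyz1 and Lyz2, and reads that fit several places were left out by the counting, so the split among copies is uncertain. Lyz2 itself held 10.8, 29.1 and 9.004 CPM in positive cells of the duodenum and was not called.

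Between 4 and 6 of 14 Paneth genes were at the floor of 3 counts in every library of a colon group, and their summed level in the colon was 95.3 to 125 CPM in positive and 16.8 to 49.7 CPM in negative libraries, against 24400 to 61800 CPM in positive libraries of the duodenum. A single negative library of the colon decided several calls. Without the first, AY761184 had 3.32 (adjusted p = 0.0513) and Defa30 3.06 (adjusted p = 0.0711), and without the second, Itln1 had 3.44 (adjusted p = 0.053). Pnliprp2, a lipase that ran with them at 4.27 (adjusted p = 0.005), had 3.11 (adjusted p = 0.163) without the second. Limma voom called 2 of the 12 and DESeq2 10, with list medians of 3.67 and 4.22. Dll4, a Notch ligand of secretory cells, had 2.75 (standard error 0.42, adjusted p = 0.000224) and was the 1 gene called of 6 for deep crypt secretory cells. It held 34.6, 37.8 and 37.4 CPM in positive and 3.51, 3.44 and 3.75 CPM in negative libraries of the duodenum, and 2.86, 3.40 and 4.00 CPM against 6.71, 3.66 and 2.55 CPM in the colon.

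Anxa3, a calcium-dependent membrane-binding protein, had the largest value among the named genes called higher in the small intestine. In the colon it held 12.3, 17.1 and 24.3 CPM in positive and 13.3, 13.6 and 22.5 CPM in negative libraries, which overlapped. In the duodenum the positive libraries held 32.7, 34.97 and 17.3 CPM, and the negative ones had at most 1 count, so the level was at least 137-fold higher in positive cells when set against the floor of 3 counts per library. In the ileum the positive libraries held 4.52, 1.502 and 3.68 CPM and the negative ones 0.206, 0.141 and 0.111 CPM. The fitted difference between small intestine and colon was 5.75 (adjusted p = 1.79e-06), which depends on the prior count, and negative cells of the colon exceeded those of the small intestine for this gene as they did for Muc2.

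**Figure D2:**
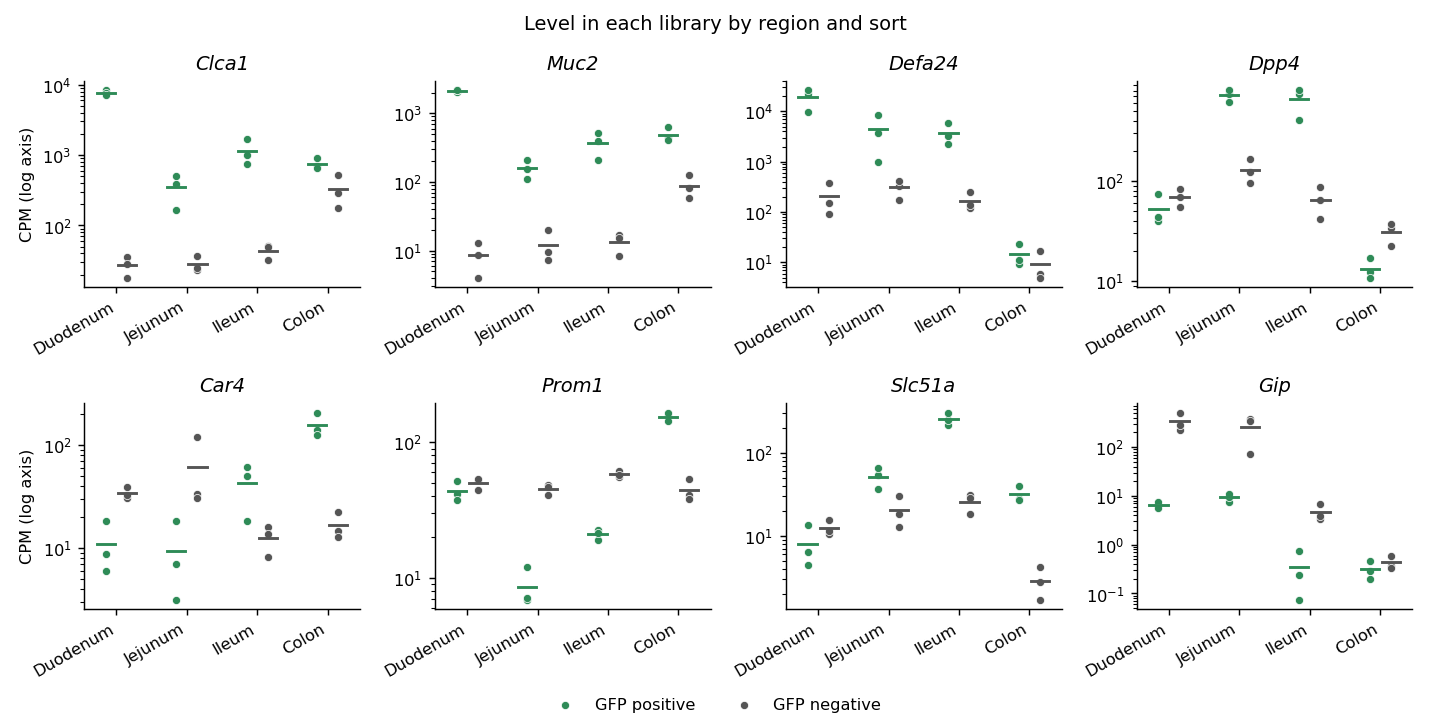
Level in CPM on a log axis for 8 genes in each of the 24 libraries, by region and by sort (green, GFP positive; grey, GFP negative), with a bar at the mean of 3 libraries. Clca1 and Muc2 were higher in the negative libraries of the colon than in those of the small intestine, Defa24 was low in both sorts of the colon, and the sorts of Dpp4, Car4 and Prom1 changed order between regions.

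Some brush-border and absorptive genes of enterocytes also had a higher sort difference in the small intestine. Of 19 brush-border hydrolases 8 were called in this direction, of 19 genes for sugar, peptide and amino acid uptake 4, and of 19 tested for fat absorption 3, with list medians of 0.82, 1.05 and 0.84. Limma voom called 3, 2 and 1 of them and DESeq2 8, 8 and 6. With the duodenum alone 0 of each list were called higher in the small intestine. In the colon 4, 1 and 1 were then called higher, with medians of -1.08, -0.14 and -0.91. All 19 hydrolases were higher in positive cells of the small intestine, where 24.3% of all genes were, and 8 of them in the colon, where 9.31% were. Dpp4, a peptidase that trims dietary peptides and incretin hormones, held 614, 741 and 803 CPM in the positive and 94.6, 124 and 165 CPM in the negative libraries of the jejunum. In the colon it ran the other way, with 12.2, 10.8 and 16.9 CPM in positive and 34.0, 22.2 and 37.1 CPM in negative libraries, and the sorts did not overlap in either region. In the duodenum the sorts overlapped, at 39.9, 43.4 and 74.4 CPM in positive and 54.7, 68.5 and 82.8 CPM in negative libraries. The difference between small intestine and colon was 3.04 (standard error 0.40, adjusted p = 2.97e-05).

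The milk sugar hydrolase Lct (2.88, adjusted p = 0.00489), the ectoenzyme Enpp3 (2.82, adjusted p = 0.00489) and the peptidase Ace (2.33, adjusted p = 0.0019) followed, as did the amino acid transporter Slc6a19 (2.92, adjusted p = 0.0108), the peptide transporter Slc15a1 (1.59, adjusted p = 0.0435) and the glucose transporter Slc5a1 (1.36, adjusted p = 0.0333). Of the fat absorption genes, the acyl-CoA synthetase Acsl5 had 1.58 (adjusted p = 0.00962), the apolipoprotein Apoa1 1.89 (adjusted p = 0.0341) and Apoa4 1.98 (adjusted p = 0.048). With the duodenum alone each of these enzymes, transporters and fat absorption genes lost its call (Acsl5 0.11, adjusted p = 0.958). Slc15a1 (-0.72), Slc5a1 (-0.35) and Apoa1 (-0.16) then changed sign. Some of these genes were low in both sorts of the colon, whereas Ace, Slc15a1, Slc5a1, Acsl5, Apoa1 and Apoa4 had at least 10 counts in every library. Slc6a19, for example, held 0.618 to 1.74 CPM in positive and 1.02 to 1.68 CPM in negative libraries of the colon, against 318 to 421 CPM and 25.7 to 37.6 CPM in the jejunum. The calls of Apoa4, Slc15a1, Slc5a1 and Apoa1 were lost in 18, 14, 6 and 4 of the 24 fits that left out 1 library, with adjusted p up to 0.421, 0.178, 0.119 and 0.158, and those of Lct and Slc6a19 were lost without the first negative library of the colon (2.31, adjusted p = 0.0536 and 2.66, adjusted p = 0.0587). The sucrase gene Sis was the most abundant hydrolase not called, at -0.69 (95% interval -1.46 to 0.07), with sort differences of -0.76, 1.71 and 3.41 from duodenum to ileum and 2.15 in the colon.

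The median sort difference of the goblet list was 6.20, 3.05 and 3.90 from duodenum to ileum and 1.66 in the colon. That of the brush-border list was 0.71, 3.06, 3.79 and 1.81. With the duodenum alone set against the colon, 8 goblet genes were called higher in the small intestine and 4 brush-border genes were called higher in the colon, where 1.47% and 2.15% of all genes were. With the jejunum and ileum alone, 6 goblet genes and 9 brush-border genes were called higher in the small intestine, against 2.96% of all genes. Among the 3 regions, 17 of 19 brush-border genes, 18 of 19 uptake genes and 7 of 12 goblet genes differed in their sort difference, against 13.8% of all genes.

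**Figure D3:**
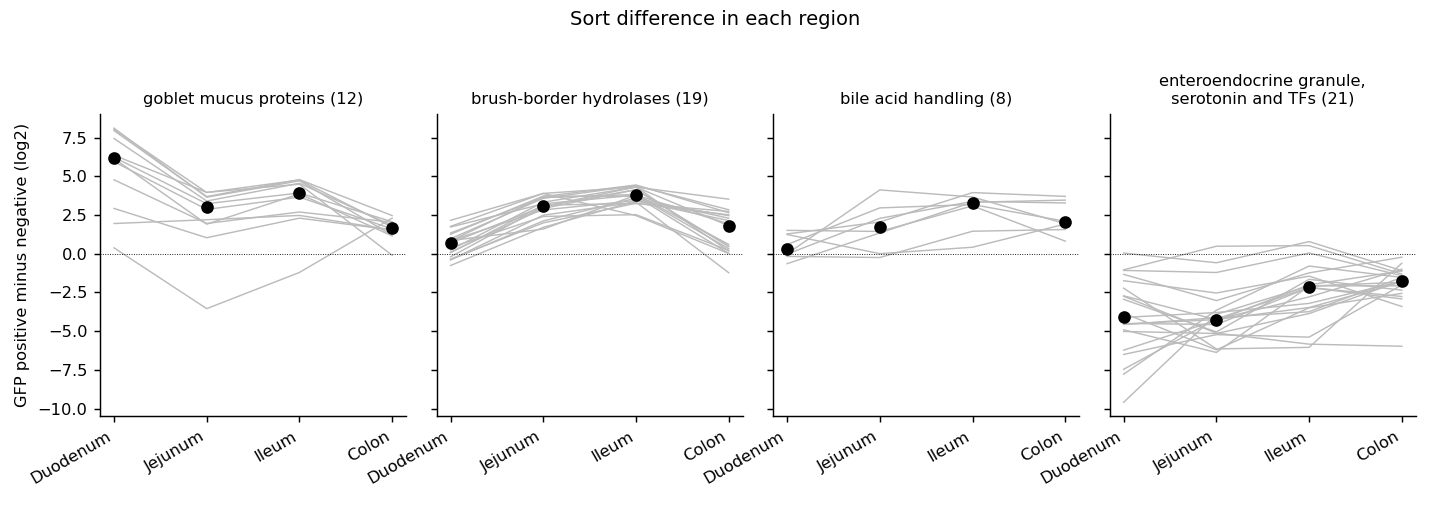
Sort difference (GFP positive minus GFP negative, log2) in the duodenum, jejunum, ileum and colon for the members of 4 gene lists (grey lines, 1 per gene tested) with the median of each list (black points). The goblet medians ran from 6.20 in the duodenum to 1.66 in the colon, the brush-border medians were highest in the ileum at 3.79, and the enteroendocrine medians were nearest to 0 in the colon at -1.77.

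Genes whose sort difference had opposite signs in the small intestine and the colon were few. Among abundant protein-coding genes 8 were higher in positive cells of the small intestine and lower in those of the colon, and 26 the reverse. Besides Dpp4, the former included the zinc transporter Slc30a2, the nucleobase transporter Slc23a4, the aromatic amino acid transporter Slc16a10, the lipid scramblase Ano6 and the actin regulator Marcksl1. Ano6 held 456, 454 and 476 CPM in positive and 73.2, 93.0 and 81.9 CPM in negative libraries of the jejunum, and 5.33, 4.88 and 4.84 CPM against 15.7, 10.3 and 10.5 CPM in the colon. The sorts were ordered oppositely in these regions with no overlap, and its difference was 2.59 (standard error 0.38, adjusted p = 0.000168). In the duodenum its sort difference was -0.25, of the same sign as the -1.27 of the colon, and with the duodenum alone Ano6 (1.02, adjusted p = 0.257), Slc16a10 (1.77, adjusted p = 0.158), Slc23a4 (3.28, adjusted p = 0.106) and Dpp4 (0.84, adjusted p = 0.42) lost their calls. Slc16a10 had 3.03 (0.57, adjusted p = 0.00216) and Marcksl1 2.93 (0.61, adjusted p = 0.00506). Slc30a2 had at most 2 counts in any positive library of the colon and 0.120 to 0.952 CPM in the negative ones, so its fitted value of 4.92 (adjusted p = 0.00142) depends on the prior count, and without the second negative library of the colon it was 3.79 (adjusted p = 0.0668). Slc23a4 (4.77, adjusted p = 0.00394) was uneven in the positive libraries of the ileum, at 0.215, 39.8 and 27.3 CPM, as was Marcksl1 at 4.95, 54.9 and 42.3 CPM, the first of these libraries being the low one for both. Limma voom did not call Slc23a4 (adjusted p = 0.283) or Marcksl1 (adjusted p = 0.0712).

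Of the genes higher in positive cells of the colon and lower in those of the small intestine, Car4 and Prom1 are described first. Car4, a membrane carbonic anhydrase that serves salt uptake, held 139, 206 and 124 CPM in positive and 14.6, 12.8 and 22.5 CPM in negative libraries of the colon. In the duodenum the order was reversed, with 6.04, 8.79 and 18.4 CPM in positive and 30.2, 32.9 and 38.7 CPM in negative libraries, and in the ileum it was as in the colon, with 18.5, 60.6 and 50.2 CPM against 8.13, 16.1 and 13.6 CPM. The sorts did not overlap in any of these regions. The small intestine lay below the colon by 4.08 (standard error 0.62, adjusted p = 0.000228), and with the ileum alone Car4 had -1.46 and was not called (adjusted p = 0.292). Prom1, the surface protein CD133, held 156, 166 and 143 CPM in positive and 40.9, 38.3 and 54.0 CPM in negative libraries of the colon, and 6.84, 7.08 and 11.9 CPM against 40.6, 48.1 and 46.8 CPM in the jejunum. Its negative libraries were alike in all 4 regions, at 38.3 to 61.5 CPM, and its difference was -3.16 (0.29, adjusted p = 1.02e-07), the smallest adjusted p among the genes named.

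Slc8a1, the sodium-calcium exchanger, had the fitted value furthest from 0 in this direction among the genes named, at -6.30 (adjusted p = 0.000139). It held 41.7, 43.2 and 31.4 CPM in positive and 0.479, 7.69 and 6.55 CPM in negative libraries of the colon. In the jejunum the positive libraries had at most 3 counts and the negative ones 4.25, 3.47 and 1.33 CPM, at least 15.7-fold higher against the floor. The fitted value of -6.30 and its rank therefore depend on the prior count. The secreted growth factor Bmp3 (-4.69, adjusted p = 0.000366), the adrenergic receptor Adra2a (-4.08, adjusted p = 1.32e-05), the lipid flippase Atp11a (-3.95, adjusted p = 0.000344) and the calcium-binding protein S100g (-3.98, adjusted p = 0.00131) were likewise higher in positive cells of the colon and lower in those of the small intestine taken as the mean of its regions. The regions were unequal. The sort difference of S100g was -0.28, -4.25 and 1.24 from duodenum to ileum and 2.89 in the colon, and its call was lost with the ileum alone (-1.64, adjusted p = 0.299). That of Adra2a was 0.44, -3.79 and -2.53 against 2.12, and that of Atp11a -0.61, -4.78 and -1.62 against 1.62, and both lost their call with the duodenum alone (-1.68, adjusted p = 0.112 for Adra2a and -2.23, adjusted p = 0.0858 for Atp11a). S100g and Atp11a had at most 3 and 2 counts in positive libraries of the jejunum. Their values of -4.25 and -4.78, and the differences built on them, thus depend on the prior count. Against the floor, negative cells of the jejunum were at least 11.5-fold and 10.3-fold higher. Bmp3 was called with each region alone. The surface protein gene Plet1 and Mfap3l were close to the floor throughout the small intestine, with at most 0.643 CPM and 1.20 CPM in any library there, against 57.8 to 74.0 CPM and 25.0 to 45.1 CPM in positive cells of the colon. Their fitted values of -5.03 (adjusted p = 0.000191) and -4.27 (adjusted p = 0.0107) depend on the prior count, while the sort difference within the colon, 3.71 and 1.89, rests on counts. Rbp7, a retinol-binding protein, ran differently. It was low throughout the colon, at 0.120 to 1.49 CPM, and in the jejunum it held 0.895, 0.558 and 3.06 CPM in positive and 44.9, 21.7 and 40.7 CPM in negative libraries (difference -4.59, adjusted p = 0.000344).

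Of 18 genes tested for colonocyte ion and water transport 5 were called higher in the colon and 1 higher in the small intestine, with a list median of -1.24. With the ileum alone 1 gene was called in each direction. In positive cells 15 of the 18 were called higher in the colon than in the small intestine, where 15.9% of all genes were. The water channel Aqp4 was even in the colon, at 75.9, 85.7 and 91.7 CPM in positive and 82.7, 91.0 and 103 CPM in negative libraries. In the jejunum it held 0.511, 0.279 and 1.75 CPM in positive and 31.8, 25.0 and 32.3 CPM in negative libraries. Its difference of -3.36 (standard error 0.39, adjusted p = 6.68e-06) thus came with overlapping sorts in the colon and separate sorts in the jejunum. With the duodenum alone Aqp4 had -1.10 and was not called (adjusted p = 0.223), nor was Slc5a8 (1.59, adjusted p = 0.507). The phosphate transporter Slc20a1 had -2.32 (adjusted p = 0.0146), and its call was lost without the first positive library of the colon (-2.08, adjusted p = 0.0577) or the second negative one (-2.02, adjusted p = 0.0678). The exception was Slc5a8, which takes up short-chain fatty acids, at 2.87 (0.57, adjusted p = 0.00367). It held 74.3, 49.7 and 82.1 CPM in positive and 67.8, 69.4 and 107 CPM in negative libraries of the colon, and 145, 192 and 276 CPM against 12.0, 20.95 and 30.9 CPM in the ileum. Car1, a cytosolic carbonic anhydrase typical of the colon, was not called (-1.68, 95% interval -4.06 to 0.69, adjusted p = 0.45), although it held 1108 to 1347 CPM in positive and 74.1 to 218 CPM in negative cells of the colon. Its positive libraries of the ileum were spread from 0.515 to 56.0 CPM, and without the first of them its value was -2.95 (adjusted p = 0.0471).

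Of 8 genes tested for bile acid handling 3 were called higher in the colon, and the list median was -1.25. With the jejunum and ileum alone 1 gene was called and the median was -0.58, and with the ileum alone 1 gene was called and the median was 0.17. The median sort difference of the list was 0.30, 1.75 and 3.26 from duodenum to ileum and 2.02 in the colon, and with library size alone as scaling 1 gene was called. Slc51a, a subunit of the basolateral bile acid exporter, held 4.51, 6.32 and 13.4 CPM in positive and 10.5, 11.54 and 15.6 CPM in negative libraries of the duodenum, and 220, 252 and 306 CPM against 18.1, 30.7 and 28.7 CPM in the ileum. In the colon it held 28.1, 39.6 and 27.4 CPM in positive and 2.76, 1.69 and 4.17 CPM in negative libraries. The sorts overlapped in the duodenum and were separate in the ileum and colon. Its sort difference was -0.64, 1.35, 3.33 and 3.47 from the duodenum to the colon, and the small intestine lay below the colon by 2.12 (standard error 0.44, adjusted p = 0.00501). That call was lost with the jejunum and ileum alone (-1.13, adjusted p = 0.113) and with the ileum alone (-0.14, adjusted p = 0.928). The exporter Abcc3 (-1.36, adjusted p = 0.0219) and the bile acid receptor Nr1h4 (-1.22, adjusted p = 0.029) were the others, and their calls were lost in 4 and 5 of the 24 fits that left out 1 library (adjusted p up to 0.104 and 0.128). Nr1h4 also lost its call with the ileum alone (-0.11, adjusted p = 0.924), and Abcc3 with the duodenum alone (-0.68, adjusted p = 0.487). Fabp6, the ileal bile acid-binding protein, held 1373, 1141 and 1391 CPM in positive and 119, 167 and 172 CPM in negative libraries of the ileum and was not called for the small intestine as a whole (1.20, adjusted p = 0.373).

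Of 24 genes for xenobiotic metabolism 3 were called higher in the colon and 1 higher in the small intestine, the cytochrome Cyp3a11 (2.63, adjusted p = 0.0354; lost in 4 of 24 fits, adjusted p up to 0.311). With library size alone as scaling the former count was 0 and the latter 1, and with the jejunum and ileum together and with the ileum alone the former was 0 as well. The carboxylesterase Ces2e had a sort difference of -1.01, 1.50 and 2.92 from duodenum to ileum and 2.94 in the colon, and a difference of -1.80 (adjusted p = 0.00394). Ces2c followed with -0.60, 2.19, 3.21 and 3.41 (difference -1.81, adjusted p = 0.0146), and the cytochrome Cyp2c65 with -0.87, 0.80, 2.76 and 2.74 (-1.84, adjusted p = 0.00839). With the ileum alone Ces2e had -0.02 (adjusted p = 0.995), Ces2c -0.20 (adjusted p = 0.898) and Cyp2c65 0.02 (adjusted p = 0.996). The call of Ces2c was lost without the first negative (-1.61, adjusted p = 0.0658) or the second positive library of the colon (-1.46, adjusted p = 0.102). Of 9 genes tested for iron and calcium absorption 2 were called higher in the colon, S100g and the calcium pump Atp2b1. The latter had sort differences of -0.24, 1.16, 2.07 and 2.30 in the same order (difference -1.30, adjusted p = 0.0108), and lost its call in 3 of the 24 fits (adjusted p up to 0.0824). Atp2b1 also lost its call with the jejunum and ileum together and with the ileum alone (-0.23, adjusted p = 0.799). The iron oxidase Heph, the most abundant member not called, had 0.99 (95% interval 0.36 to 1.62), and it was called higher in the small intestine in 6 of 8 other processing settings, DESeq2 among them (1.15, adjusted p = 0.00375). Pdk4, a kinase that turns down glucose oxidation, was the 1 gene called of 18 for fatty acid oxidation and ketogenesis, at -4.26 (adjusted p = 0.00569), and its call was lost with limma voom (adjusted p = 0.0558) and with the jejunum alone (-3.01, adjusted p = 0.0572). It held 6.34, 25.0 and 11.49 CPM in positive and 0, 0.513 and 0.340 CPM in negative libraries of the colon.

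Of 11 hormone genes tested 4 were called higher in the colon, and of 21 tested for granules, serotonin and endocrine transcription factors 6, with list medians of -2.55 and -1.93. In the small intestine 10 of the 11 and 18 of the 21 were lower in positive cells (33.5% of all genes). In the colon 4 and 8 were lower (3.8%) and 1 hormone gene, Nts, was higher (9.31%). Chgb, a granule protein of endocrine cells, held 16.9, 23.6 and 5.74 CPM in positive and 570, 480 and 454 CPM in negative libraries of the duodenum. In the colon it held 85.7, 171 and 91.2 CPM and 519, 367 and 279 CPM. The sorts did not overlap in either region, and the positive libraries of the colon lay above those of the duodenum while the negative ones overlapped. The difference was -2.93 (standard error 0.62, adjusted p = 0.00591) for Chgb and -2.62 (0.58, adjusted p = 0.00879) for its relative Chga, which lost its call without the second positive library of the colon (-2.03, adjusted p = 0.0718). Positive cells of the small intestine lay below those of the colon by 2.95 for Chgb, and negative cells differed by -0.03 (95% interval -0.89 to 0.84).

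The hormone genes differed in where the contrast came from. Gip, the incretin of the upper gut, held 6.04, 7.39 and 5.74 CPM in positive and 226, 279 and 512 CPM in negative libraries of the duodenum, and in the colon at most 0.599 CPM in any library. Its sort difference in the colon, -0.44 (95% interval -2.06 to 1.19), was thus read close to the floor of 3 counts. The fitted difference between the tissues was -4.27 (standard error 0.91, adjusted p = 0.00649), which rests on those low counts. Without the first positive library of the colon it was -3.91 (adjusted p = 0.0545), and limma voom did not call it (-4.20, adjusted p = 0.129). Nts, neurotensin, held 10.4, 14.2 and 5.75 CPM in positive and 0.959, 5.57 and 0.510 CPM in negative libraries of the colon, and 36.3, 19.97 and 39.9 CPM against 309, 109 and 91.8 CPM in the jejunum. It was therefore higher in positive cells of the colon (2.04, adjusted p = 0.0298) and lower in those of the small intestine (-1.73, adjusted p = 0.000125), with a difference of -3.77 (0.74, adjusted p = 0.00285). Tac1, which encodes substance P, had -2.65 (adjusted p = 0.0343) and the transcription factor Nkx2-2 -4.19 (adjusted p = 0.0409), and their calls were lost in 5 and 11 of the 24 fits that left out 1 library (adjusted p up to 0.309 and 0.273). Nkx2-2 had at most 2 and 1 counts in positive libraries of the jejunum and ileum, so its fitted value depends on the prior count. Against the floor its negative cells were at least 19.1-fold and 10.0-fold higher there. Gcg, which encodes glucagon-like peptides, had -2.55 (adjusted p = 0.0241) and the transcription factor Insm1, with at most 1 count in positive libraries of the duodenum, -3.68 (adjusted p = 0.0271), and each lost its call in 4 of the 24 fits (adjusted p up to 0.139 and 0.0753). Sst, somatostatin, was the most abundant hormone not called, at -1.47 (95% interval -2.73 to -0.20). With the ileum alone set against the colon, the list medians were -0.76 for hormones and -0.25 for granule genes, 1 gene of each list was called higher in the small intestine, and 0 of either list were called higher in the colon. The 4 and 6 calls given above were thus all lost with the ileum alone, with adjusted p of 0.163 for Nts (-2.19), 0.124 for Chgb (-2.12) and 0.0896 for Gip (-3.16). Limma voom on all regions called 2 and 5 genes higher in the colon, and 1 and 0 higher in the small intestine.

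All 28 cell cycle genes were lower in positive cells of the small intestine, where 33.5% of all genes were, and 16 in the colon, where 3.8% were. Of the 28, 1 was called for the difference, Birc5 at -1.60 (adjusted p = 0.0411), at a list median of -1.23. DESeq2 called 3 and limma voom 4 in the same direction, and RLE factors and library size alone each called 0, while 14 of the 28 had an unadjusted p under 0.05 in edgeR. Mki67, a marker of dividing cells, held 30.6, 24.1 and 20.6 CPM in positive and 96.4, 69.7 and 61.1 CPM in negative libraries of the duodenum, 5.75, 5.52 and 5.11 CPM against 96.2, 106 and 38.7 CPM in the jejunum, and 30.1, 30.01 and 30.1 CPM against 131, 72.3 and 32.8 CPM in the colon. Its difference of -1.51 did not pass (adjusted p = 0.0727), and in the jejunum and ileum its sort difference was -3.87 and -3.21 against -1.38 in the colon. With the jejunum and ileum alone 15 of the 28 cell cycle genes were called higher in the colon, where 7.03% of all genes were, and with the duodenum alone the list median was 0.06. Of 14 stem cell genes 13 were lower in positive cells of the small intestine (33.5% of all genes). In the colon 8 were lower (3.8%) and 1, Prom1, was higher (9.31%). For the difference 2 were called, Prom1 and the cyclin-dependent kinase Cdk6 (-1.37, adjusted p = 0.0477), the calls of Cdk6 and Birc5 being lost in 17 and 14 of the 24 fits (adjusted p up to 0.178 and 0.152), and the stem cell marker Olfm4 was not (-1.93, 95% interval -3.36 to -0.49), with 3.32 to 14.2 CPM in all colon libraries. Of 13 tuft cell genes tested edgeR, DESeq2 and limma voom each called 0, and 3 had an unadjusted p under 0.05 in edgeR.

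The guanylin genes themselves were not called. Guca2a differed by 1.07 (95% interval 0.31 to 1.83, adjusted p = 0.0976) and Guca2b, which encodes uroguanylin, by 0.93 (95% interval 0.21 to 1.64, adjusted p = 0.13), and DESeq2 called both, at 1.22 (adjusted p = 0.0136) and 1.09 (adjusted p = 0.0148). The sort difference of Guca2a was 5.75 in the duodenum and 2.65, 2.86 and 2.69 in the jejunum, ileum and colon, so its mean over the small intestine rested on the duodenum. With the duodenum alone Guca2a was called higher in the small intestine (3.07, adjusted p = 0.000129). In the transgene Venus replaces the coding sequence of Guca2a, so reads on Guca2a could come from it only outside that sequence. The share of such reads was not tested. The receptor Gucy2c had a difference of 0.07 (95% interval -0.53 to 0.67, adjusted p = 0.941), with 85.8 to 123 CPM in positive and 48.5 to 65.9 CPM in negative libraries of the colon. Of the 8 genes of the system 1 was called. Prkg2, the cGMP-dependent kinase downstream of the receptor, held 52.9, 50.1 and 36.8 CPM in positive and 9.35, 9.60 and 4.51 CPM in negative libraries of the colon, and 11.4, 3.70 and 15.3 CPM against 20.3, 16.5 and 19.6 CPM in the duodenum. The order of the sorts was opposite in these regions with no overlap, and the difference was -1.89 (standard error 0.40, adjusted p = 0.00591). In the jejunum and ileum the sort difference of Prkg2 was 1.77 and 1.18, on the same side as the 2.58 of the colon, against -0.90 in the duodenum. The call was lost with the jejunum and ileum alone (-1.10, adjusted p = 0.0911) and with either of them alone (adjusted p up to 0.314), so it rested on the duodenum.

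Markers of surface differentiation were higher in positive cells of both tissues. Of 14 genes tested 13 were higher in positive cells of the small intestine (24.3% of all genes) and 14 in those of the colon (9.31%). The list median of the difference was -0.05, which turned to 0.12 with RLE factors and 0.30 with library size alone. The regions ran in opposite directions, with a median of -1.12 and 4 genes called higher in the colon for the duodenum alone, and a median of 0.40, 2 genes called higher in the small intestine and 1 in the colon for the jejunum and ileum together. Krt20, the keratin of surface cells, differed by -0.02 (95% interval -0.84 to 0.79, adjusted p = 1.0). The 1 gene called was Lypd8, a surface protein that keeps bacteria from the colon epithelium, at -1.66 (adjusted p = 0.0164), and its call was lost in 3 of the 24 fits (adjusted p up to 0.103). Of 8 general epithelial genes the keratin Krt19 was called (-1.73, adjusted p = 0.029), and it lost its call in 5 fits (adjusted p up to 0.112). Of 19 transcription factors of regional identity tested edgeR called 0, DESeq2 2 higher in the small intestine and limma voom 0, while 5 had an unadjusted p under 0.05. All 7 genes of antigen presentation by MHC class II were higher in the small intestine than in the colon in both sorts. Over all genes the shares were 10.3% in positive and 6.53% in negative cells. For the difference edgeR, DESeq2 and limma voom called 0 of the 7, and no unadjusted p was under 0.05. Of 7 genes tested for mitochondrially encoded subunits 1 was called higher in the colon and 6 had an unadjusted p under 0.05, with a list median of -1.24. DESeq2 and limma voom each called 4 of them, and RLE factors and library size alone each called 0. The gene called, mt-Nd1, was at -1.61 (adjusted p = 0.0295), held 595 to 1488 CPM in positive and 2391 to 4809 CPM in negative libraries of the small intestine, and lost its call in 8 fits (adjusted p up to 0.101).

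Markers of cell types other than epithelium were low in every library. Summed over their lists, markers of T cells reached at most 21.5 CPM, of B and plasma cells 13.3, of myeloid and mast cells 29.5, of endothelium 8.42, of fibroblasts and smooth muscle 18.6, of enteric neurons and glia 2.52 and of red blood cells 2.05 CPM. Pancreatic acinar markers summed to 19.6 to 86.0 CPM in the colon and at most 6.81 CPM in the small intestine, and 8 of the 9 were at the floor in each colon group. Of the 23 genes of these lists that could be tested, edgeR, DESeq2 and limma voom each called 0 for the difference, and 1 had an unadjusted p under 0.05 in edgeR. Of 10 genes of the dissociation response edgeR and limma voom called 0 and DESeq2 1, with 1 unadjusted p under 0.05 in edgeR.

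**Figure D4:**
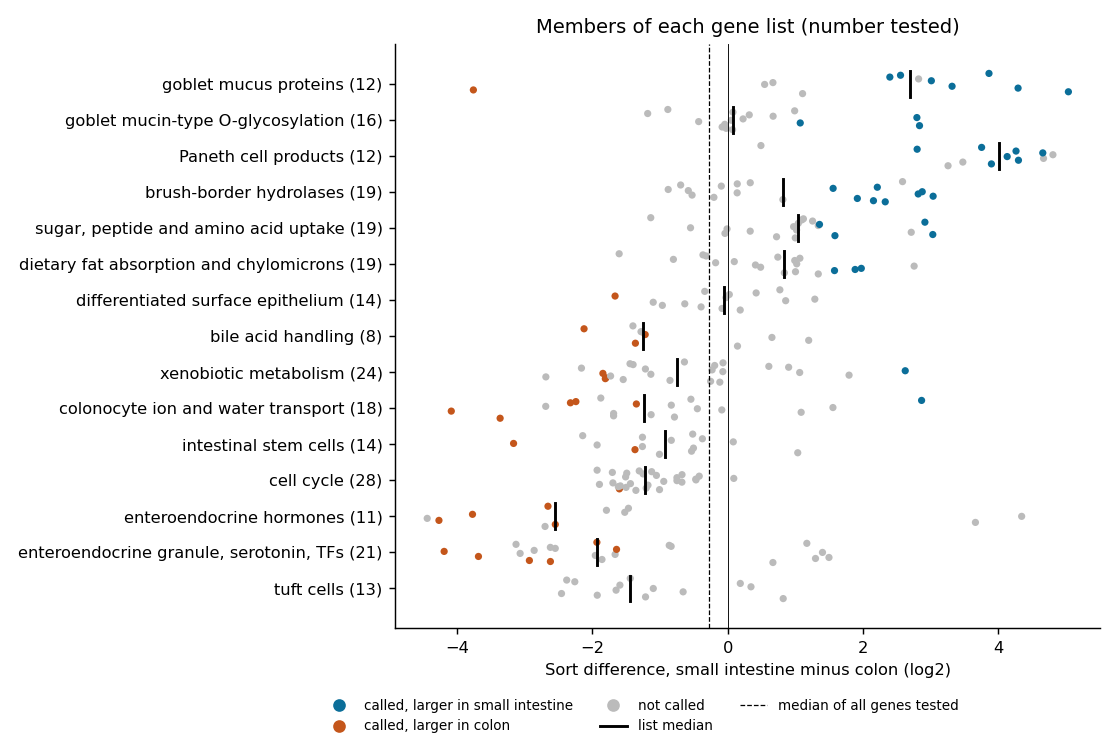
Difference between the sort difference of the small intestine and that of the colon (log2) for each member of 15 gene lists, with the number tested in parentheses, the list median (black bar) and the median of all genes tested (dashed line, -0.27). Goblet, Paneth and enterocyte lists have members called higher in the small intestine (blue), and enteroendocrine, colonocyte and bile acid lists have members called higher in the colon (orange).

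Because the comparison is a difference of differences, each value equals the difference between small intestine and colon in positive cells minus that in negative cells. In positive cells 1549 genes (10.3%) were higher in the small intestine and 2395 (15.9%) in the colon, and in negative cells 983 (6.53%) and 864 (5.74%). For Muc2, Chst4 and Galnt5 the positive cells differed by 0.03, 0.08 and 0.30 and the negative cells by -2.98, -2.76 and -2.49. The small intestine enters these values as the mean of its regions, which were unequal. Positive libraries of the duodenum lay above those of the colon for Muc2 and Chst4, and those of the jejunum below them for Muc2. A mean near 0 in positive cells therefore does not show that each region was like the colon. For Prom1, Car4 and Chgb the positive cells differed by -2.96, -3.25 and -2.95 and the negative cells by 0.20, 0.84 and -0.03. For Nts, Slc51a and Rbp7 the positive cells differed by 0.30, 0.59 and 1.61 and the negative cells by 4.07, 2.71 and 6.21. For Lyz1, Lct and Slc6a19 both sorts were higher in the small intestine, by 8.93, 6.20 and 6.87 in positive and 4.66, 3.32 and 3.95 in negative cells.

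**Figure D5:**
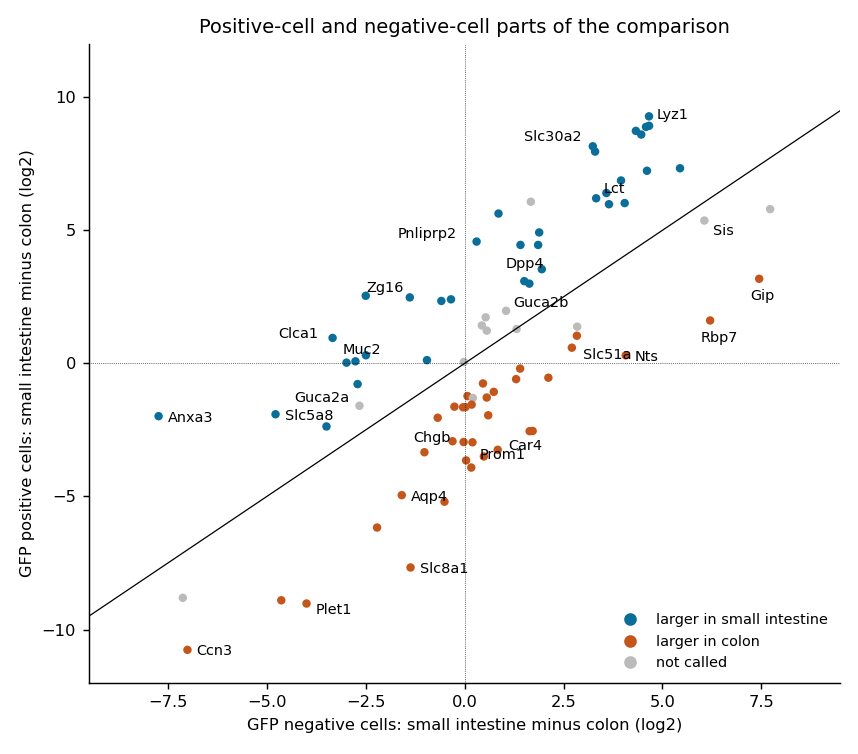
Difference between small intestine and colon (log2) in GFP negative cells on the horizontal axis and in GFP positive cells on the vertical axis for the 83 genes named in the text. The line marks equal differences in both sorts, colour marks the 70 genes called (blue above the line, higher in the small intestine; orange below it, higher in the colon), genes not called are grey, and Muc2 lies at 0.03 in positive and -2.98 in negative cells. The small intestine enters as the mean of its regions, which were unequal for Muc2.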

How the data were processed

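RNA-seq of sorted cells was analysed in 24 libraries, 3 for each of 4 regions and 2 sorts. The authors made stranded total RNA libraries, sequenced single ends, aligned reads to GRCm38 with STAR (2.5.1 in the submitters' processing notes, which also name CASAVA) and deposited raw counts per gene. The annotation and strand setting are not given in the sources used here. Every count column was matched to 1 library through its index pair, and closing lines that name no gene (reads ambiguous, multimapping, outside genes or unmapped) were left out of library sizes and tests; they held 39.4% to 75.8% of the reads of a library.

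Genes were filtered with filterByExpr (at least 10 counts in a group's worth of libraries, 15 in total) and scaled by TMM. A quasi-likelihood model in edgeR 4.0.16 (R 4.3.3) gave each group a coefficient, and p-values were adjusted by Benjamini-Hochberg over 15044 genes at a threshold of 0.05. Levels are TMM-scaled CPM, and the floor is 3 counts per library (0.106 to 0.360 CPM). Standard errors were computed back from the test, as the absolute log2 difference divided by the square root of its F statistic. The 95% intervals were built on them with the t distribution and are approximate. Names and positions came from GENCODE M21 (53360 of 53465 genes). Alternatives used RLE factors, library size alone, other filters, protein-coding genes, the i5 index as a term, DESeq2 1.42.0, limma 3.58.1 voom, single regions, and each library left out in turn. The test was also run on simulated counts, and no result given here rests on that run.

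The members and gene lists were chosen with earlier results of these data known. Genes named are the guanylin genes and markers, those with the largest difference in each direction at 5 CPM or more, those of opposite sign, and from each list up to 4 called members and the most abundant uncalled one. Those with the largest difference were also required to have each region of the small intestine on the same side of the colon. Not every gene the rule gave is named.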

Additional observations from a re-analysis of the deposited data

Results flagged for a closer look

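The results below stood out because the sort difference was tested to differ between tissues. It was called higher in the small intestine than in the colon for 207 genes and higher in the colon for 414, and it differed among the duodenum, jejunum and ileum for 2072 genes (edgeR). The values that follow are the sort difference of the small intestine minus that of the colon on the log2 scale, and no explanation for them was tested.

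Among the genes named, the highest values were those of Anxa3 (5.75), Ang4 (5.04), Slc30a2 (4.92), Slc23a4 (4.77), Itln1 (4.66), Gm14851 (4.62), AY761184 (4.41), Defa24 (4.30), Clca1 (4.29), Pnliprp2 (4.27), Lyz1 (4.26), Defa30 (4.13). Next came Zg16 (3.86), Dpp4 (3.04), Slc16a10 (3.03), Muc2 (3.01), Marcksl1 (2.93), Slc6a19 (2.92), Lct (2.88), Slc5a8 (2.87), Chst4 (2.84), Enpp3 (2.82), Galnt5 (2.80), Dll4 (2.75), Cyp3a11 (2.63). The remaining genes higher in the small intestine were Ano6 (2.59), Ace (2.33), Apoa4 (1.98), Ern2 (1.93), Apoa1 (1.89), Slc15a1 (1.59), Acsl5 (1.58), Slc5a1 (1.36), Creb3l1 (1.12), Galnt10 (1.07).

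In the other direction the values furthest from 0 were those of Slc8a1 (-6.30), Plet1 (-5.03), Bmp3 (-4.69), Rbp7 (-4.59), Mfap3l (-4.27), Gip (-4.27), Pdk4 (-4.26), Nkx2-2 (-4.19), Car4 (-4.08), Adra2a (-4.08). They were followed by S100g (-3.98), Atp11a (-3.95), Nts (-3.77), Ccn3 (-3.76), Insm1 (-3.68), Aqp4 (-3.36), Prom1 (-3.16), Chgb (-2.93), Tac1 (-2.65), Chga (-2.62), Gcg (-2.55). The remaining genes higher in the colon were Slc20a1 (-2.32), Slc51a (-2.12), Prkg2 (-1.89), Cyp2c65 (-1.84), Ces2c (-1.81), Ces2e (-1.80), Krt19 (-1.73), Lypd8 (-1.66), mt-Nd1 (-1.61), Birc5 (-1.60), Cdk6 (-1.37), Abcc3 (-1.36), Atp2b1 (-1.30), Nr1h4 (-1.22).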

How the results depend on the processing

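Counts of genes higher in the small intestine and in the colon, 207 and 414 as reported, were 73 and 129 at an adjusted p of 0.01, 266 and 138 with library size alone, 213 and 262 among genes with 10 counts in every library, 129 and 589 with limma voom, 483 and 593 with DESeq2, 446 and 1057 with the jejunum and ileum alone, 346 and 1112 with the jejunum alone and 229 and 190 with the ileum alone. Without a filter 318 were higher in the small intestine. The share higher in the small intestine, 33.3% as reported, was 49.1% with RLE factors, 65.8% with library size alone, 48.4% on protein-coding genes, 29.7% with the i5 index as a term, 18.0% with limma voom and 44.9% with DESeq2, and the median of all genes ranged from -0.35 with limma voom to 0.04 with library size alone.

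Of the other counts, an adjusted p of 0.01 gave 811 genes higher and 161 lower in positive cells of the colon, 988 higher in the small intestine and 1477 higher in the colon within positive cells, 578 higher in the small intestine within negative cells, and 1038 that differed among the 3 regions. A log2 difference of at least 1 left 2153 genes higher in positive cells of the small intestine. Library size alone gave 2464 and 1361 within positive cells. No filter gave 1382 higher in the colon within negative cells. Genes with 10 counts in every library gave 2626 lower in positive cells of the small intestine, 920 higher in those of the colon, 935 and 1292 within positive cells and 374 and 464 within negative cells. DESeq2 gave 1118 lower in positive cells of the colon.

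Leaving out 1 library gave 96 to 249 genes higher in the small intestine and 158 to 810 higher in the colon. The 96 came without the first positive library of the colon, the 158 without the second, and the 810 without the third positive library of the jejunum. The other ranges were 3489 to 3842 genes higher and 4647 to 5365 lower in positive cells of the small intestine, 747 to 1468 and 180 to 676 in those of the colon, 1037 to 1664 and 1654 to 2730 within positive cells, 688 to 1025 and 664 to 1111 within negative cells, and 1449 to 2574 among the 3 regions. Of the 70 genes called and named, 37 were called in every such fit and 33 were lost in some.

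Several named genes changed sign with the region. With the duodenum alone Apoa1 had -0.16, Slc15a1 -0.72, Slc5a1 -0.35, Gucy2c -0.36 and Birc5 0.14. With the jejunum alone Guca2a had -0.043 and Ern2 -0.10, with the ileum alone Cyp2c65 had 0.021 and Sis 1.26, and with jejunum and ileum Sis had 0.41. Krt20, at -0.02 as reported, had 0.15 with RLE factors and with DESeq2, 0.34 with library size alone, 0.064 without a filter, 0.059 among genes counted in every library, 0.12 on protein-coding genes, 0.31 with jejunum and ileum, 0.076 with the jejunum and 0.55 with the ileum. Leaving out 1 library moved Krt20 between -0.23 and 0.23 and Gucy2c between -0.068 and 0.29. Over the 8 other processing settings 563 values of named genes kept direction and side of the threshold, 44 lost the call, 16 gained it and 6 reversed. Of the 70 genes called and named, limma voom did not call Gip, Slc23a4, Itln1, Gm14851, AY761184, Pnliprp2, Defa30, Marcksl1, Lct, Enpp3, Slc6a19, Slc15a1, Apoa4, Apoa1, Tac1, Nkx2-2, Pdk4 and Cyp3a11. Library size alone lost Ccn3, Abcc3, Nr1h4, Atp2b1, Slc20a1, Lypd8, Tac1, Nkx2-2, Cdk6, Birc5, Cyp2c65, Ces2c, Ces2e, mt-Nd1 and Krt19, RLE factors Ccn3, Nr1h4, Cdk6, Birc5 and mt-Nd1, no filter Galnt10, Creb3l1, Nr1h4 and Cdk6, and protein-coding genes Cdk6 and Birc5. The duodenum alone lost 29: Slc23a4, Adra2a, Atp11a, Ccn3, Ano6, Slc16a10, Dpp4, Lct, Enpp3, Ace, Slc6a19, Slc15a1, Slc5a1, Apoa4, Apoa1, Acsl5, Abcc3, Aqp4, Slc5a8, Slc20a1, Lypd8, Gcg, Nkx2-2, Insm1, Cdk6, Birc5, Cyp3a11, mt-Nd1 and Krt19. The jejunum alone lost 12: Muc2, Pnliprp2, Mfap3l, Prkg2, Chst4, Galnt5, Galnt10, Creb3l1, Ern2, Insm1, Pdk4 and Ces2c. The ileum alone lost 27: Gip, Mfap3l, Car4, S100g, Nts, Ccn3, Prkg2, Galnt5, Galnt10, Creb3l1, Ern2, Slc51a, Nr1h4, Atp2b1, Slc20a1, Lypd8, Tac1, Gcg, Nkx2-2, Insm1, Chgb, Chga, Cyp2c65, Ces2c, Ces2e, mt-Nd1 and Krt19. The cause of these changes was not tested. No paired analysis was made, because the labels carry neither replicate numbers nor the mouse. The libraries are listed in 3 passes through the same 8 groups. The mitochondrial share was highest in the second pass in every group except the negative jejunum. Whether these passes are the mice was not tested, and no block on them was fitted, so all calls rest on an unblocked model. The floor of 3 counts was highest in the first negative library of the colon, at 0.360 CPM, which limits Paneth and endocrine genes there.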
